A study of Homo sapiens with 4 samples.

Results

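The genes described here are the cytosolic HSP70 and HSP90 chaperones together with their closest partners, 10 of the 18885 genes with a value in each library. They were found by symbol: the HSP70 genes HSPA1A, HSPA1B, HSPA6, HSPA7 and HSPA8, the HSP110 gene HSPH1, the J protein gene DNAJB1, the HSP90 genes HSP90AA1 and HSP90AB1, and HSF1. They were chosen with the values of the same libraries in view, so their differences between the groups are given as a description, with no test. RNA-seq was performed in MV4-11, a human acute myeloid leukemia (AML) cell line that carries an MLL fusion gene. There were 2 libraries of the control group (NC), whose labels give no treatment and no shRNA, and 2 libraries of cells with ANP32B knockdown by shRNA (sh-ANP32B). According to the study's methods, the hairpins were delivered by lentivirus and cells were selected with puromycin. The methods name a control hairpin, sh-NC, whereas the labels name none, so an effect of transduction and selection cannot be told apart from the loss of ANP32B. The knockdown columns carry the mark S3, and the cells thus appear to carry a single hairpin. The labels do not say whether libraries of a group came from separate cultures, so the spread between them may be technical.

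The values are TPM (transcript abundance corrected for gene length and scaled to nearly the same total in each library). Totals ranged from 997271 to 998546, and TPM keep no read numbers, so the depth is unknown. ANP32B itself had 358 and 364 TPM in NC and 54.1 and 49.3 TPM in sh-ANP32B, which left 14.3% of the control mean. Of the 8 myeloid markers looked up, 7 were listed, among them SPI1, CEBPA, HOXA9, CD33, CD4, FLT3 and MEIS1. Of the 7 monocyte markers, 6 were listed, and their summed level was 516 and 510 TPM in NC against 5570 and 5510 TPM in sh-ANP32B, nearly all of it LYZ. CD14 was not listed. None of the 4 T cell or the 3 erythroid markers was listed, and of the 3 B cell and 4 epithelial or stromal markers 2 and 1 were. Differences were tested by limma after a log2(TPM + 1) transform, in the 16937 genes that reached 1 TPM in 2 or more libraries. The heat shock genes all passed this filter and reached 1 TPM in each of the 4 libraries. Log2 fold changes are sh-ANP32B minus NC. A call required an adjusted p (Benjamini-Hochberg) under 0.05 together with a change of more than 0.5 on the log2 scale, up or down. In bulk RNA, fewer cells of a type and less RNA per cell cannot be told apart.

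Heat shock proteins of the HSP70 and HSP90 families are ATP-driven chaperones of the cytosol. HSP70 binds exposed stretches of unfolded proteins, J proteins such as DNAJB1 load it and trigger its ATPase, and HSP110 proteins such as HSPH1 exchange its nucleotide. HSP90 then takes over client proteins that are nearly folded, among them many kinases and steroid receptors. HSPA8 and HSP90AB1 are the constitutive forms, while HSPA1A, HSPA1B and HSPA6 are known as genes that are switched on by heat. HSF1 is the transcription factor of this response, and it binds heat shock elements, which are repeats of NGAAN units in alternating direction. Mutant kinases of leukemia cells are well known clients of HSP90.

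The letters of the element were searched in RefSeq promoter windows of GRCh38.p14, from 250 bases before to 50 bases after each start site, on both strands. The shorter form had 2 units, TTC and GAA in either order, with any 2 bases between them (TTCNNGAA or GAANNTTC). The longer form had 3 units, TTCNNGAA followed by NNTTC or GAANNTTC followed by NNGAA, and each longer match contains 2 overlapping shorter ones. Of the 10 genes, 8 had a window, 7 held the shorter form and 4 held the longer one. Over all 35116 windows, 13.5% held the shorter form and 0.49% the longer one. These shares count windows, whereas a gene was counted if any of its windows held a match. The shares and the gene counts are therefore not like measures. A stretch with matches is shown for each of the 7 genes because HSF1 is known to bind such letters: matches are in capitals, the sequence runs 5′ to 3′ on the strand of the gene, and the position follows the name.
HSP90AA1, chr14:102087085-102087152, minus strand: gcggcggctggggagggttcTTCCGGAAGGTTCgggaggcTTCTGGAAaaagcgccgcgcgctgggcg
HSP90AB1, chr6:44247758-44247863, plus strand: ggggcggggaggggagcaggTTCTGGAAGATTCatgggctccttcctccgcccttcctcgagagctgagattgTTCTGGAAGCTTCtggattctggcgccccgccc
HSPA8, chr11:123062171-123062199, minus strand: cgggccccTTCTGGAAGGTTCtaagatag
HSPA6, chr1:161524446-161524498, plus strand: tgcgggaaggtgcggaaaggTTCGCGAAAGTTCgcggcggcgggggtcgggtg
HSPA1A, chr6:31815417-31815464, plus strand: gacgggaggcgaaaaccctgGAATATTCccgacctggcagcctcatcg
HSPA1B, chr6:31827613-31827660, plus strand: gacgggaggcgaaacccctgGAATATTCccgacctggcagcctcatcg
DNAJB1, chr19:14518417-14518494, minus strand: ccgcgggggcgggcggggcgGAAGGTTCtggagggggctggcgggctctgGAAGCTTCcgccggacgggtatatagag

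The longer form was found in HSP90AA1, HSP90AB1, HSPA8 and HSPA6, whereas HSPA1A, HSPA1B and DNAJB1 held only the shorter form. The HSPH1 window held neither form. In HSP90AB1 the matches lie before the last of the 3 start sites in the table, and in HSP90AA1 before the second of 2. The HSPA8 stretch lies within an exon of a longer annotated transcript of the gene. A match describes the letters and not the binding of HSF1, which was not measured in these libraries.

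The members split into an abundant set and a scarce set, and the sets lay on opposite sides of the control after ANP32B knockdown. HSP90AB1, HSPA8, HSP90AA1, HSF1, HSPH1 and DNAJB1, in this order of TPM, were the 6 highest in each library, and all 6 were lower in both sh-ANP32B libraries than in both NC libraries. HSPA1B, HSPA1A, HSPA6 and HSPA7 stood below 6 TPM in NC, and all 4 were higher in both sh-ANP32B libraries. All 4 belong to pairs of near-identical copies. Whether reads that match both copies were counted or discarded is not given, so their low level may in part be one of counting. The order of the lower 4 changed, since HSPA7 was the lowest in NC and the highest of these 4 in sh-ANP32B. Within a group, the TPM of neighbours in this order never overlapped. Over all genes tested, the TPM of the groups did not overlap for 32.1% of genes with sh-ANP32B lower and for 42.5% with sh-ANP32B higher, or 74.7% in either direction. Shares over genes of like abundance were not taken. With quantile normalization, the log2 fold changes of HSPA1A, HSPA1B, HSPA6 and HSPA7 were 0.09, 0.12, 0.30 and 2.83. With the TPM as deposited they were 0.31, 0.34, 0.57 and 3.01. By the call rule, 2 of the 10 genes were lower and 2 were higher, beside 10.1% and 17.9% of all genes (28% together), and nothing is read from these counts because the genes were chosen on this contrast. Lower genes made up 36.1% of all calls with the TPM as deposited, 48.9% after median-of-ratios scaling and 50.2% after quantile normalization. Without the fold limit, 19.7% of all genes were lower and 26% higher.

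**Figure D1:**
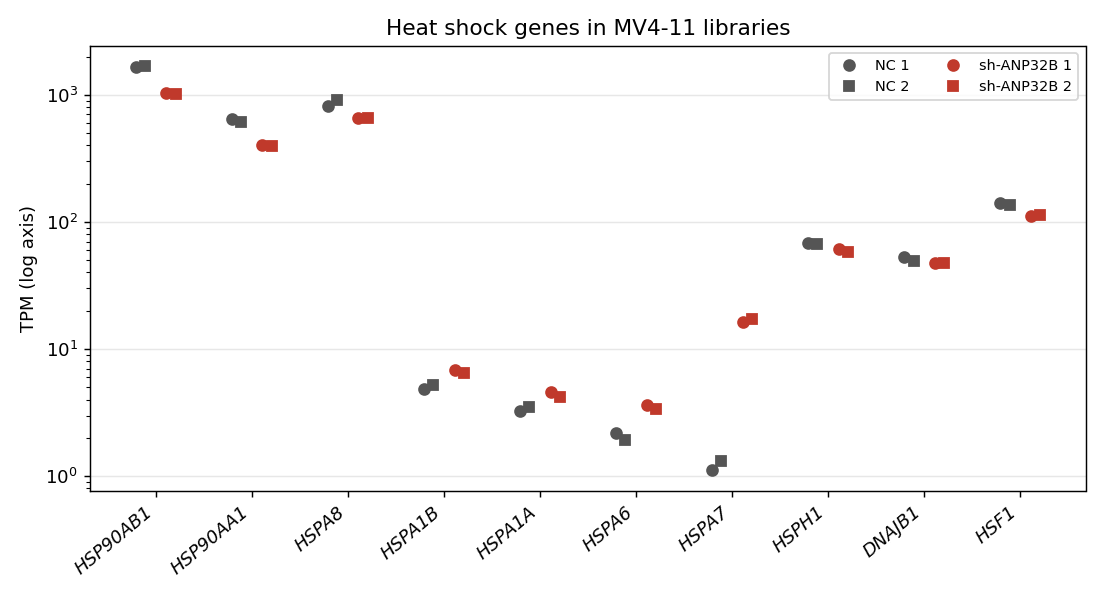
TPM (log axis) of the 10 heat shock genes in each of the 4 MV4-11 libraries, NC in grey and sh-ANP32B in red, circles for replicate 1 and squares for replicate 2. The 3 most abundant genes lie lower in sh-ANP32B, while HSPA7 stands at 1.11 and 1.31 TPM in NC and at 16.3 and 17.2 TPM in sh-ANP32B.

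The HSP90 pair was lower by more than any other of the 10 genes. HSP90AB1 (ENSG00000096384), the constitutive cytosolic HSP90, is encoded at 44246166 to 44253888 on chromosome 6 (hg38, plus strand). Its values were 1655 and 1680 TPM in NC and 1034 and 1014 TPM in sh-ANP32B. Both NC libraries were high, both sh-ANP32B libraries were low, and the libraries of each group lay close together. The mean was 1668 ± 17.1 TPM (SD, n = 2) in NC and 1024 ± 14.2 TPM (SD, n = 2), or 61.4% of it, in sh-ANP32B, a log2 fold change of -0.70 with a standard error of 0.033. Among all 18885 genes, HSP90AB1 ranked 66 and 67 by TPM in NC and 99 and 107 in sh-ANP32B. HSP90AA1 (ENSG00000080824), the more heat-responsive form, lies on the minus strand of chromosome 14 from 102080742 to 102139699. It had 643 and 616 TPM in NC and 401 and 395 TPM in sh-ANP32B, and the groups stood well apart. It was left with 63.1% of the control mean, a log2 fold change of -0.66 with a standard error of 0.038. HSP90AB1 held 72% and 73.2% of the summed TPM of the pair in NC and 72.1% and 72% in sh-ANP32B, so the division between both forms moved little. The annotation names 6 pseudogenes of the HSP90AB1 kind and 5 of the HSP90AA1 kind, with which reads could have been shared. The single HSP90AB1 pseudogene listed had 9.45 and 7.77 TPM in NC and 5.04 and 5.78 TPM in sh-ANP32B, far below the gene itself. HSP90AA1 shares 197 exonic bases with WDR20 on the opposite strand, which had at most 14.5 TPM.

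HSPA8 (ENSG00000109971), the constitutive HSP70 that also strips clathrin from vesicles, lies on the minus strand of chromosome 11 from 123057489 to 123063230. It had 820 and 915 TPM in NC and 652 and 659 TPM in sh-ANP32B. The NC libraries differed from each other by more than those of any other abundant member, yet even the lower of them was well above both sh-ANP32B libraries. HSPA8 was left with 75.6% of the control mean, a log2 fold change of -0.40 with a standard error of 0.058. Without NC replicate 2, the higher NC library, this was -0.32. The difference was smaller for HSPA8 than for the HSP90 pair, and the pair divided by HSPA8 was 2.8 and 2.51 in NC and 2.2 and 2.14 in sh-ANP32B, ratios that a single scaling factor per library leaves as they are. The annotation names 17 HSPA8 pseudogenes, of which 1 was listed, with at most 2.42 TPM.

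HSPA1A and HSPA1B, the major heat-induced HSP70 genes, were scarce in all libraries. HSPA1A (ENSG00000204389, plus strand of chromosome 6, from 31815543 to 31817946) had 3.23 and 3.48 TPM in NC and 4.62 and 4.22 TPM in sh-ANP32B. HSPA1B (ENSG00000204388, plus strand of chromosome 6, from 31827738 to 31830254) had 4.86 and 5.26 TPM in NC and 6.78 and 6.52 TPM in sh-ANP32B. Both were somewhat higher in each sh-ANP32B library, and the groups did not overlap. The mean of HSPA1A was 132% and that of HSPA1B 131% of the control mean. The log2 fold changes on the log2(TPM + 1) scale, which understates changes of such low genes, were 0.31 with a standard error of 0.157 and 0.34 with a standard error of 0.134. They came to 0.24 and 0.25 with median-of-ratios scaling, and to 0.09 and 0.12 with quantile normalization. Their coding sequences differ at 4 of 1923 positions, and 91% of the 100-base windows of the HSPA1A coding sequence occur unchanged in HSPA1B. Reads could therefore have been split between them or left uncounted, and the HSPA1B to HSPA1A ratio stayed between 1.47 and 1.55 in all 4 libraries. Summed, they had 8.09 and 8.74 TPM in NC and 11.4 and 10.7 TPM in sh-ANP32B. HSPA1B also shares 920 exonic bases with a lncRNA on the same strand, which was not listed.

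HSPA7 showed the greatest change of the 10 genes. HSPA7 (ENSG00000225217) is annotated as an unprocessed pseudogene of HSP70, on the plus strand of chromosome 1 from 161606291 to 161608217. It had 1.11 and 1.31 TPM in NC and 16.3 and 17.2 TPM in sh-ANP32B, with a wide gap between the groups. The mean TPM was 13.8 times that of NC, and the log2 fold change was 3.01 with a standard error of 0.142 and 3.69 with a pseudocount of 0.1. HSPA6 (ENSG00000173110), a strictly heat-inducible HSP70, lies on the same strand from 161524540 to 161526894. It had 2.17 and 1.93 TPM in NC and 3.66 and 3.39 TPM in sh-ANP32B, low in every library and higher after knockdown. Its mean was 172% of the control mean, a log2 fold change of 0.57 with a standard error of 0.175, which was 0.30 after quantile normalization. HSPA7 and HSPA6 are identical at 1899 of 1926 aligned positions (98.6%), and 34.4% of the 100-base windows of HSPA7 occur unchanged in HSPA6. The read length is not given in the sources used here. Reads of HSPA7 could have been counted for HSPA6 or left uncounted, and whether the rise of HSPA6 was its own was not tested. Even so, HSPA7 divided by HSPA6 moved from 0.512 and 0.678 in NC to 4.47 and 5.07 in sh-ANP32B, so the values of both copies did not move in step. Both together had 3.29 and 3.23 TPM in NC and 20 and 20.6 TPM in sh-ANP32B, a log2 fold change of 2.32.

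Both genes lie within the Fc gamma receptor cluster, a group of genes for antibody receptors of monocytes and other immune cells. These neighbours were looked up after the values of HSPA7 were seen. HSPA7 begins 629 bases after the end of FCGR2C on the same strand, and HSPA6 begins 527 bases after the end of FCGR2A. FCGR2C had 2.21 and 4.18 TPM in NC and 37.2 and 31 TPM in sh-ANP32B, which amounted to 3.1 on the log2 scale (adjusted p = 4.34e-04, limma). FCGR2B, the next receptor gene listed after HSPA7, had 2.68 and 2.17 TPM against 12.9 and 14.4 TPM (log2 fold change 2.10, adjusted p = 3.39e-04, limma). FCGR2A rose less, from 28.5 and 31.1 TPM to 49.1 and 48.2 TPM (log2 fold change 0.69, adjusted p = 9.15e-04, limma). Thus HSPA7 lay beside the receptor gene with the larger rise and HSPA6 beside the one with the smaller rise. How far reads could be shared between the receptor genes was not examined. The part of the neighbouring genes, and of the monocyte markers that rose in the same libraries, in the values of HSPA6 and HSPA7 was not tested.

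**Figure D2:**
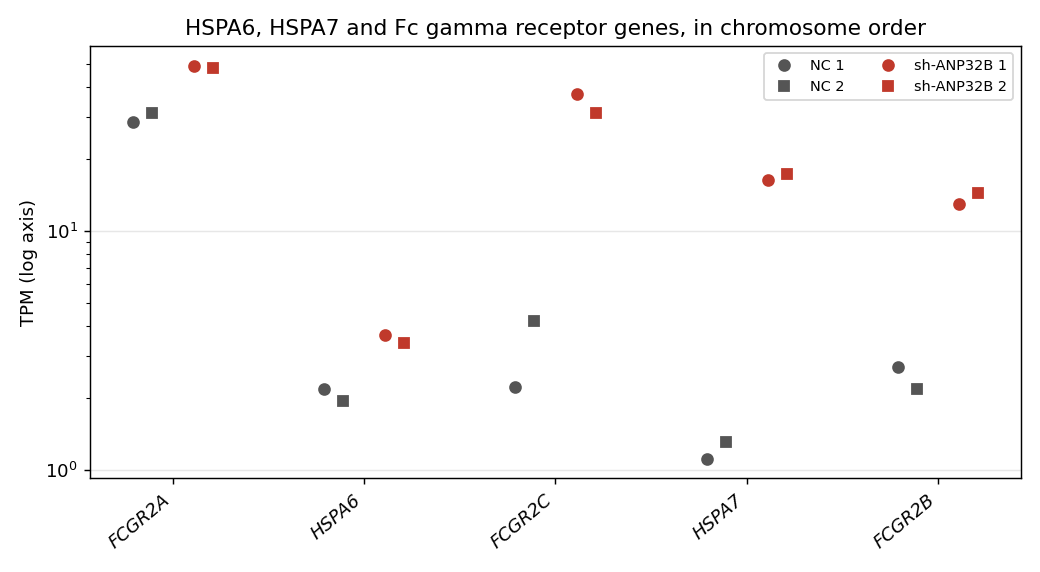
TPM (log axis) of HSPA6, HSPA7 and the listed Fc gamma receptor genes in the 4 libraries, ordered along chromosome 1 with equal spacing, NC in grey and sh-ANP32B in red. HSPA7 and FCGR2C have log2 fold changes of 3.01 and 3.1, HSPA6 and FCGR2A of 0.57 and 0.69.

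The differences of the HSP70 partners were small. HSPH1 (ENSG00000120694, minus strand of chromosome 13, from 31134973 to 31162388), the HSP110 exchange factor, had 68.8 and 66.9 TPM in NC and 61.1 and 58.5 TPM in sh-ANP32B. It was left with 88.1% of the control mean, a log2 fold change of -0.18 with a standard error of 0.052. DNAJB1 (ENSG00000132002, minus strand of chromosome 19, from 14514769 to 14560391), the J protein that works with HSPA1A and HSPH1 on aggregates, had 53.4 and 49.3 TPM in NC and 47.8 and 47.6 TPM in sh-ANP32B. The groups nearly touched, and the gap between them was smaller than the gap within NC. The log2 fold change of DNAJB1 was -0.10 with a standard error of 0.062. It was -0.05 without NC replicate 1, -0.16 without NC replicate 2 and -0.20 with median-of-ratios scaling, so its size rested on single control libraries and on the scaling. It shares 525 exonic bases with TECR on the opposite strand, which had 263 TPM in both NC libraries and 226 and 234 TPM in sh-ANP32B, and strand handling is not given in the sources used here. HSPA8 differed by more than its partners: HSPA8 divided by HSPH1 moved from 11.9 and 13.7 in NC to 10.7 and 11.3 in sh-ANP32B, and HSPA8 divided by DNAJB1 from 15.3 and 18.6 to 13.7 and 13.8. For both ratios the gap between the groups was smaller than the gap within NC. Without NC replicate 2, the log2 fold changes were -0.32 for HSPA8, -0.20 for HSPH1 and -0.16 for DNAJB1.

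HSF1 (ENSG00000185122), the heat shock transcription factor, lies on the plus strand of chromosome 8. It had 142 and 136 TPM in NC and 111 and 113 TPM in sh-ANP32B, with both sh-ANP32B libraries below both NC libraries. It was left with 80.5% of the control mean, a log2 fold change of -0.31 with a standard error of 0.045. HSF1 shares 137 exonic bases with DGAT1 on the opposite strand, whose TPM moved the other way, from 82.1 and 81.3 to 104 and 108. These libraries measure RNA, and the activity of HSF1, which is set largely by its release from chaperones and by phosphorylation, was not measured.

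**Figure D3:**
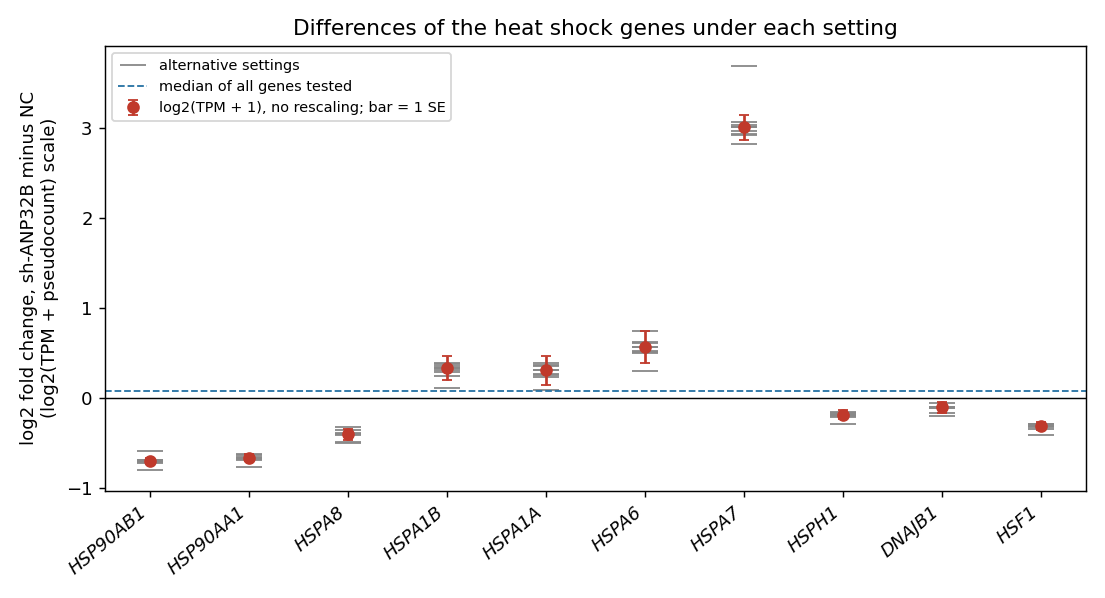
Log2 fold change of each heat shock gene (red points, bars of 1 standard error) with its value under each of 10 alternative settings (grey dashes), the zero line and the median of all genes tested (0.08, dashed blue). The sign of each of the 10 genes stayed the same under all of these settings. Only median-of-ratios scaling and quantile normalization could have changed it, as the groups did not overlap. Among the genes that were higher, the values of HSPA1A and HSPA1B came closest to zero, at 0.09 and 0.12.

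As a pool, the HSP70 members and the HSP90 pair held less of the RNA after knockdown. Their summed level was 3129 and 3223 TPM in NC and 2119 and 2099 TPM in sh-ANP32B, which was 0.313% and 0.323% of all TPM against 0.212% and 0.21%. The HSP90 pair accounted for 2299 and 2296 TPM of this in NC and for 1435 and 1409 TPM in sh-ANP32B. HSPA8 made up 98.6% and 98.7% of the summed HSP70 members in NC and 95.4% and 95.5% in sh-ANP32B. HSPA7, a pseudogene transcript, accounted for 2.39% and 2.49% in sh-ANP32B, up from 0.134% and 0.141%. HSPA8 was 101 and 105 times the sum of HSPA1A and HSPA1B in NC and 57.2 and 61.3 times in sh-ANP32B. HSPA1A, HSPA1B, HSPA6 and HSPA7 together made up 1.37% and 1.29% of the summed HSP70 members in NC and 4.59% and 4.54% in sh-ANP32B. They thus stayed minor in every library by the values as deposited. If reads that match both copies of a pair were discarded, the levels of these genes beside HSPA8 are too low. Summing the copies does not restore such reads. Much of this shift was the pseudogene HSPA7, and the lower HSPA8 by itself raises the other shares.

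The genes with profiles most like those of HSP90AB1 and HSPA1A were found by the Euclidean distance of log2(TPM + 1) over the 4 libraries, each profile centred on its own mean, over all genes whose mean reached 10 TPM. For HSP90AB1 these were CKAP5, a microtubule regulator (distance 0.014), CALU (distance 0.015) and DNMT1, the maintenance DNA methyltransferase (distance 0.018). For HSPA1A they were ABHD18, ARNT and PTOV1-AS2, with distances from 0.01 to 0.015. With 4 libraries in 2 groups, such likeness mainly says that a gene differed between the groups by the same amount on the log2(TPM + 1) scale. HSPA1A itself lies below 10 TPM, where this scale understates changes. The genes found for it can therefore differ less in TPM.

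The co-chaperones and stress genes around the members were taken from 10 lists, with 103 genes in all, of which 90 were tested. Across them 18 genes were called lower and 8 higher, where 10.1% of all genes tested were lower and 17.9% higher, and the median was -0.08 on the log2 scale, beside 0.08 for all genes tested. HSP90 co-chaperones, which load, time and release clients of HSP90, held 8 of the 18 lower genes. Of the 18 co-chaperones tested, 8 fell, 1 rose, 5 more passed the adjusted p on the lower side and 2 on the higher side without reaching the fold limit, and 2 did not pass. Over all genes, 10.1% were called lower and 17.9% higher. The median of the co-chaperones was -0.48. Among the 8, the calls of FKBP4 and CACYBP were lost with quantile normalization, and that of CACYBP also without NC replicate 1 and without sh-ANP32B replicate 2. PTGES3, the p23 co-chaperone that stabilises the closed HSP90, fell from 582 and 531 TPM to 377 and 361 TPM (log2 fold change -0.59, adjusted p = 7.61e-04 from limma). AHSA1, which activates the HSP90 ATPase, fell from 124 and 117 TPM to 80.1 and 79 TPM (log2 fold change -0.59, adjusted p = 5.49e-04 from limma). The immunophilins FKBP4 and FKBP5, which join HSP90 complexes of steroid receptors, had log2 fold changes of -0.52 and -0.62. STIP1, the adaptor that hands clients from HSP70 to HSP90, had 177 and 180 TPM in NC and 132 and 125 TPM in sh-ANP32B, a log2 fold change of -0.47 within the fold limit (adjusted p = 8.75e-04 from limma). TTC4 had the lowest value of the list, -1.06, with sh-ANP32B libraries at 12.2 and 18.9 TPM against 35.3 and 30.5 TPM. NUDC and TOMM34 fell as well, with log2 fold changes of -0.70 and -0.65. CDC37, which brings kinases to HSP90, was on the other side of zero, with 199 and 204 TPM in NC and 231 and 229 TPM in sh-ANP32B (log2 fold change 0.19, within the fold limit). The gene that rose was CDC37L1, at 0.53 (adjusted p = 0.0225 from limma), a call that did not hold under median-of-ratios scaling, quantile normalization or with any of the 4 libraries left out.

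Of 14 J proteins, which load clients onto HSP70, 1 fell and 1 rose, beside 10.1% and 17.9% of all genes, with a median of -0.18. DNAJC9, a J protein that also acts as a histone chaperone, fell from 45.3 and 48.5 TPM to 29.7 and 32.2 TPM (log2 fold change -0.59, adjusted p = 0.00199 from limma). DNAJB2, a J protein known from neurons, rose from 7.08 and 9.83 TPM to 23.9 and 26 TPM (log2 fold change 1.47, adjusted p = 0.00121 from limma). DNAJA1, an abundant cytosolic J protein, had a log2 fold change of -0.29, within the fold limit. Of 10 exchange factors and regulators of HSP70, none was called by limma, 2 passed the adjusted p on the lower side, and the same number, 2, had an unadjusted p under 0.05. Their median was -0.07. BAG3, a well known target of HSF1, had 3.01 and 2.74 TPM in NC and 2.57 and 3.34 TPM in sh-ANP32B, and these overlapped (log2 fold change 0.02, adjusted p = 0.935 from limma). Of the 5 other HSP70 and HSP110 relatives tested, HSPA13 fell, at -0.58, while HSPA4 had -0.20 (adjusted p = 0.0741 from limma).

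Among small heat shock proteins, 2 of 9 genes were tested. HSPB1, which holds unfolded proteins without ATP, fell from 743 and 734 TPM to 524 and 517 TPM, a log2 fold change of -0.50 that lay just past the fold limit (adjusted p = 2.78e-04 from limma) and inside it with quantile normalization, without NC replicate 1 and without sh-ANP32B replicate 2. In the HSF family, HSF2 fell from 11.4 and 11.2 TPM to 7.06 and 6.69 TPM (log2 fold change -0.64, adjusted p = 0.00645 from limma). None of the 5 tested genes of the list rose past the fold limit in limma, beside 17.9% of all genes called higher and 10.1% lower. With so few genes, nothing is read from these counts. At an unadjusted p under 0.05, 2 were higher.

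The counterparts of the members in organelles did not move as 1 group. HSPA9 and TRAP1, the HSP70 and the HSP90 of mitochondria, fell with log2 fold changes of -0.55 and -0.56, and HSPA9 was inside the fold limit after quantile normalization. DNAJA3, the mitochondrial J protein, fell from 47 and 42.2 TPM to 20.5 and 22.8 TPM (log2 fold change -1.01, adjusted p = 6.32e-04 from limma). In the endoplasmic reticulum, HSP90B1 had 510 and 480 TPM in NC and 399 and 383 TPM in sh-ANP32B, a log2 fold change of -0.34 within the fold limit. HSPA5, the HSP70 of the same compartment, was on the other side of zero, with 311 TPM in both NC libraries and 377 and 375 TPM in sh-ANP32B (log2 fold change 0.27, adjusted p = 0.00193 from limma, within the fold limit). Over the 11 genes of the list, 3 fell and none rose past the fold limit in limma, beside 10.1% and 17.9% of all genes, and the median was -0.03. At an unadjusted p under 0.05, 3 were higher.

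Of the 13 genes known to be induced by heat and tested outside the members, 6 fell and none rose by limma, beside 10.1% and 17.9% of all genes, and the median was -0.47. At an unadjusted p under 0.05, with no fold limit, 9 were lower and 0 higher. The share of all genes at this unadjusted limit was not counted, here or for the other lists. With the adjusted p and no fold limit, 19.7% of all genes were lower and 26% higher. These 6 were HSPD1, HSPE1, AHSA1, FKBP4, CACYBP and HSPB1, of which 4 are also in the lists above. The calls of FKBP4, CACYBP and HSPB1 were lost with quantile normalization, and those of CACYBP and HSPB1 also without NC replicate 1 and without sh-ANP32B replicate 2. HSPD1 and HSPE1, the mitochondrial chaperonin and its lid, are encoded side by side and fell, with log2 fold changes of -0.82 and -0.79. Of the immediate early stress genes, 4 of 11 rose (FOS, JUND, ZFP36 and BTG2) and none fell by limma, beside 17.9% and 10.1% of all genes, with 1 lower at an unadjusted p under 0.05. Their median was 0.24. BTG2, an antiproliferative gene, rose from 3.83 and 3.93 TPM to 26.5 and 26.6 TPM, which was 2.50 on the log2 scale (adjusted p = 9.93e-05 from limma). FOS rose from 27.2 and 23.6 TPM to 59.7 and 58.6 TPM (log2 fold change 1.19). Of the 10 genes of ER stress, 2 rose (CRELD2 and ASNS) and 1 fell (ATF4), beside 17.9% and 10.1% of all genes. A further 6 did not pass the adjusted p, and the median of the list was 0.15. ATF4 went from 384 and 409 TPM to 230 and 216 TPM (log2 fold change -0.83, adjusted p = 2.46e-04 from limma). The call of ASNS was lost with quantile normalization and without sh-ANP32B replicate 1.

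**Figure D4:**
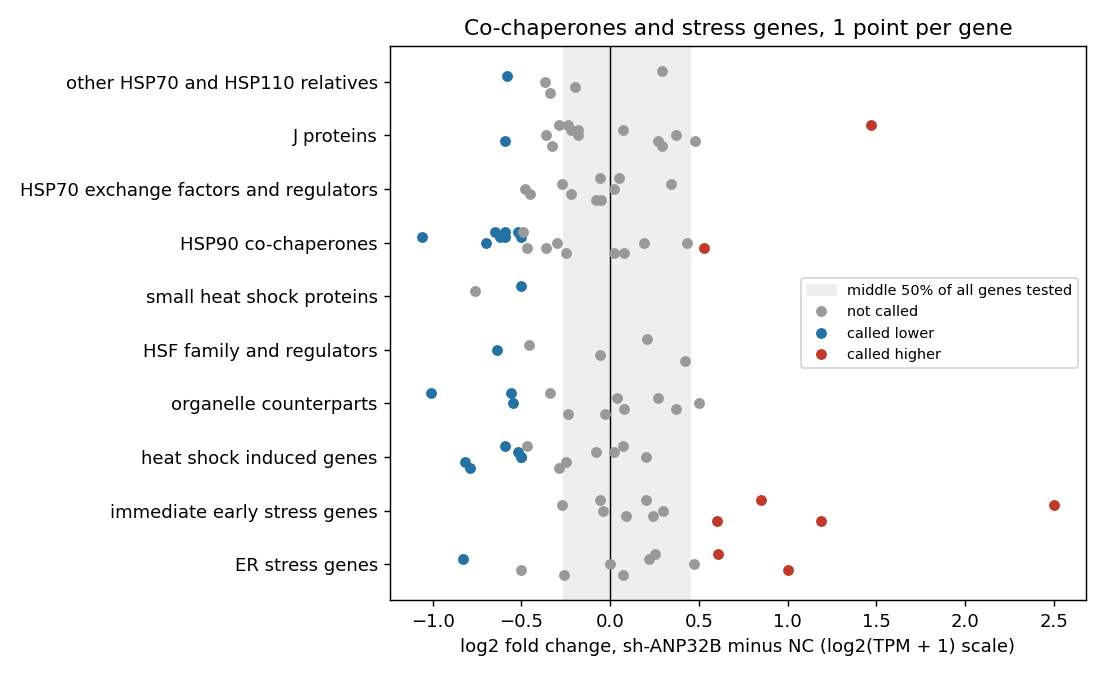
Log2 fold change of each tested gene in the 10 lists, with genes called lower in blue, called higher in red and others in grey, and the range of the middle 50% of all genes tested (-0.26 to 0.45) as a grey band. The HSP90 co-chaperones and the heat shock induced genes lie mostly left of zero, and the immediate early stress genes mostly right of it.

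Apart from the members, 36 tested genes had the longer heat shock element form in a promoter window. Of these, 6 (16.7%) were called lower and 5 (13.9%) higher, beside 10.1% and 17.9% of all genes tested. Their median log2 fold change was -0.08, beside 0.08 for all genes. Among the members that hold this form, HSP90AA1, HSP90AB1 and HSPA8 were lower and HSPA6 was higher. HSPA6 had at most 3.66 TPM and could hold reads of HSPA7. The members were chosen on this contrast, so nothing is read from these directions.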

How the data were processed

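RNA was extracted with Trizol and libraries were made with an Illumina TruSeq kit, per the labels. According to the submitters' processing notes, HISAT2 (2.0.5) was the aligner and hg38 the genome. The deposited table holds a single column for each library, with no pooling and with no unit in its header. The values were taken as TPM made by the authors, as each library sums to nearly 1000000. Quantifier, annotation, strand handling and read length are not given in the sources used here. The lowest mean of any listed gene was 0.5 TPM, and 14961 of 18885 identifiers carry a symbol. The study used a test for counts. As TPM are not counts, limma (3.58.1 in R 4.3.3; lmFit and eBayes with a trend) was fitted to log2(TPM + 1), with Benjamini-Hochberg adjustment over all 16937 genes tested. The fit was tested on simulated data. With 2 libraries against 2, an exact permutation test cannot give a two-sided p under 0.33. Positions, exons and copies were taken from GENCODE 44 on hg38 (biopython 1.88) and promoter windows from RefSeq on GRCh38.p14. Python 3.11.15 with pandas 2.3.3 was used. The members and the lists were chosen with earlier results of these data known. Genes named beyond the 10 members and ANP32B followed a rule: up to 4 called genes of largest absolute change per list, a fixed set of co-chaperones and organelle counterparts whatever their values, and the 3 genes most like each of 3 members, of which those for HSPA8 are not reported here. CACYBP, CDC37L1 and the Fc gamma receptor genes were named after their values were seen. Alternatives were other filters, a pseudocount of 0.1, 2 other scalings, other call rules, the replicate block, summed copies and each library left out.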

Additional observations from a re-analysis of the deposited data

How the results depend on the processing

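The 10 heat shock genes kept their sign under all 10 alternative settings. As the groups of each gene did not overlap, only median-of-ratios scaling and quantile normalization could have changed a sign. The widest ranges were those of HSPA7 (2.83 to 3.69), HSPA6 (0.30 to 0.75) and HSPA1A (0.09 to 0.39). Quantile normalization moved the median of all genes by -0.12 on the log2 scale, and median-of-ratios scaling moved it by -0.08. Without the fold limit, 3342 genes (19.7%) were lower and 4405 (26%) higher over all genes tested. Among the 90 listed co-chaperones and stress genes that were tested, 35 were lower and 19 higher. With the replicate block, 18 of these were lower and 8 higher, the counts found without it, and over all genes tested 1671 were lower and 2853 higher. The labels number the libraries 1 and 2 in both groups, but libraries of 1 number did not deviate together (correlation -0.0232), so the numbers were not taken to pair them. With each library left out in turn, 1517 to 1680 of all genes were lower and 2357 to 2677 higher, and of the listed genes 16 to 20 were lower and 7 to 9 higher. A library left alone in its group was assumed to vary like the other group. As TPM keep no read numbers, counting error for scarce members such as HSPA1A and HSPA6 cannot be given.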
